A study of Mus musculus with 7 samples.

Results

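The loci of 3 transcription factors of the Th1 programme were examined on mouse genome build mm9: Tbx21 (chromosome 11, 96935000 to 97000000), Runx3 (chromosome 4, 134660000 to 134760000) and Stat4 (chromosome 1, 52020000 to 52170000). The intervals were set by their coordinates and not by a rule on the reads in them, but with earlier results of these data known. They hold 65, 100 and 150 bins of 1 kb, 315 in all, of 2638947 in the genome. BRG1, an ATPase of SWI/SNF nucleosome-moving complexes, was located on DNA by chromatin immunoprecipitation and sequencing (ChIP-seq) with the J1 antibody. Each of the 7 libraries is the only one of its group, so ratios compare libraries, not conditions, and no p-values are given.

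Stimulated Th17, Th1 and Th2 cells had been treated for 1.5 h with 50 ng/ml PMA plus 500 ng/ml ionomycin, agents that stand in for signals from the T cell receptor. Resting Th1 and resting Th2 cells had not. All were made in 1 round of culture from CD4+CD62L+ cells of Balb/C mice aged 4 to 6 weeks, activated with anti-CD3 and anti-CD28. Th17 cultures had IL-6 (100 ng/ml), IL-1β (10 ng/ml), TGF-β (1 ng/ml), anti-IL-4, anti-IFNγ and later IL-23 (10 ng/ml). Th1 cultures had IL-12 (1 ng/ml), anti-IL-4 and IL-2, and Th2 cultures IL-4 (10 ng/ml), anti-IFNγ and IL-2. Naive cells, CD4+CD62L+, came straight from spleen and lymph nodes. The input was DNA of pooled CD4+ T cells without immunoprecipitation and is not matched to any state. No marker genes were checked, because no gene positions on mm9 were used.

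Tbx21 encodes T-bet, the T-box factor that directs naive helper cells to the Th1 fate and activates Ifng. Runx3 encodes a RUNX factor that works with T-bet at Ifng and helps silence Il4, and it is transcribed from alternative promoters. Stat4 encodes the factor that carries the IL-12 signal to the nucleus. In the GRCm38 gene table the nearest protein-coding genes are Osbpl7 and Tbkbp1 for Tbx21, and Syf2 and Clic4 for Runx3. That table is on another build, so regions below are named by mm9 position, and which of them are promoters was not determined.

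The sequences before the annotated starts are shown for Tbx21, the locus with the largest change, and for Runx3, whose 2 starts differ in the motifs they hold. Where they fall among the mm9 regions below was not determined. Each is the 250 bases before an annotated start, from RefSeq on GRCm38.p6, 5′ to 3′ on the gene's strand: Tbx21 at chr11:97115332-97115581 (minus), Runx3 first start at chr4:135120395-135120644 (plus) and Runx3 second start at chr4:135152295-135152544 (plus). Capitals mark matches on either strand to the RUNX motif TGTGGT or to the GC box GGGCGG.
Tbx21: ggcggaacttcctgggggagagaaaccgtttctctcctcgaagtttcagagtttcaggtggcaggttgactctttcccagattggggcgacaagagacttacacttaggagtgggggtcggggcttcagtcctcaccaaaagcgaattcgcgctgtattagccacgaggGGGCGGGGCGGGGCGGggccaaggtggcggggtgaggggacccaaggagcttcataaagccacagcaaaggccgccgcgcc
Runx3 first start: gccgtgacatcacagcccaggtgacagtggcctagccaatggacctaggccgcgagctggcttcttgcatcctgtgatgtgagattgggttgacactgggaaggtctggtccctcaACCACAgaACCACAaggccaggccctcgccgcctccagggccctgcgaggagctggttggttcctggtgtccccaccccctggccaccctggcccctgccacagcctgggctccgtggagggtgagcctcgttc
Runx3 second start: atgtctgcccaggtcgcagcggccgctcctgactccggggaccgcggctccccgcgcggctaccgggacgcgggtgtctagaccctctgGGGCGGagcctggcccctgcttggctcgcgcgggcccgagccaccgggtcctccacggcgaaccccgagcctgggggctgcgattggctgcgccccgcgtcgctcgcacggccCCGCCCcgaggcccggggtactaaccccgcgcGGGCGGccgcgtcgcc
The Tbx21 sequence holds 3 GC boxes, which share bases with each other, the first Runx3 start 2 RUNX matches, and the second Runx3 start 3 GC boxes. Among all 32851 sequences of this length in the table, 32.7% hold a GC box and 14% a RUNX match. The T-box motif GGTGTGA (3.33% of all), the STAT motif TTCNNNGAA (7.02%) and the AP-1 motif TGANTCA (6.75%) matched none of the 3 sequences. Neither of the 2 Stat4 entries matched any of the 5 motifs. A match is a description of letters and says nothing of what binds there.

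Values below are reads per 1000000 distinct reads of the library (RPM), where 1 read was kept per start and strand. Distinct reads numbered 7892944 in stimulated Th17, 3917492 in stimulated Th1, 4261900 in stimulated Th2 cells, 1808000 in resting Th1, 1340208 in resting Th2, 2071800 in naive and 3531867 in input. Repeats made up 10.2% to 11.8% of the reads in the stimulated libraries, against 28.5% to 41.4% in the resting and naive ones, which were also the shallow ones. A count of 0 allows up to 1.66 RPM in resting Th1, 2.24 in resting Th2 and 1.45 in naive (3 reads). Repeats were left out because PCR copies are not independent molecules. Ranges in brackets are 95% exact (Clopper-Pearson) intervals. They cover counting error only, since each group has 1 library and differences between cultures were not measured.

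Tbx21 was the locus of the 3 with the largest ratios of stimulated to resting BRG1 reads. Over the whole interval there were 128.2 RPM in stimulated Th17, 238.9 in stimulated Th1, 175.0 in stimulated Th2 cells, 71.4 in resting Th1, 52.2 in resting Th2, 41.5 in naive and 46.7 in input. All 3 stimulated libraries lay above every unstimulated one, with stimulated Th1 highest, and the naive library did not differ from the input beyond counting error (ratio 0.889, 0.677 to 1.16). Stimulated Th1 was 3.35-fold above resting Th1 (2.78 to 4.06) and stimulated Th2 3.35-fold above resting Th2 (2.62 to 4.35). The 2 activation ratios did not differ beyond counting error, with a quotient of Th1 to Th2 of 0.999 (0.724 to 1.37).

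Those ratios are large beside the rest of the genome. Among all tiles of 65 kb, the median ratio was 0.734 for stimulated over resting Th1 and 0.873 for stimulated over resting Th2. Of these tiles, 0.306% in Th1 and 0.223% in Th2 were at least 3-fold higher with an interval above 1, as the Tbx21 interval was in both. The flanks of 65 kb on each side, summed, also had more reads after stimulation, 1.78-fold in Th1 (1.59 to 1.99) and 1.51-fold in Th2 (1.33 to 1.72). The ratio in the interval exceeded that of its flanks 1.88-fold in Th1 (1.51 to 2.35) and 2.21-fold in Th2 (1.67 to 2.96). Against input, the interval was richer than its flanks in the stimulated libraries, 1.40-fold in stimulated Th1 (1.14 to 1.72). It was poorer in the unstimulated ones, 0.745-fold in resting Th1 (0.563 to 0.984), 0.566-fold in resting Th2 (0.404 to 0.785) and 0.633-fold in naive (0.462 to 0.862). Of its 65 bins, 1 was empty in stimulated Th1, against 22 in resting Th1, 33 in resting Th2 and 18 in naive. At equal depth the empty bins numbered 17 in stimulated Th17, 14 in stimulated Th1, 16 in stimulated Th2 cells, 25 in resting Th1, 33 in resting Th2 and 28 in naive. The part of such a shortage of reads in the ratios was not tested.

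**Figure D1:**
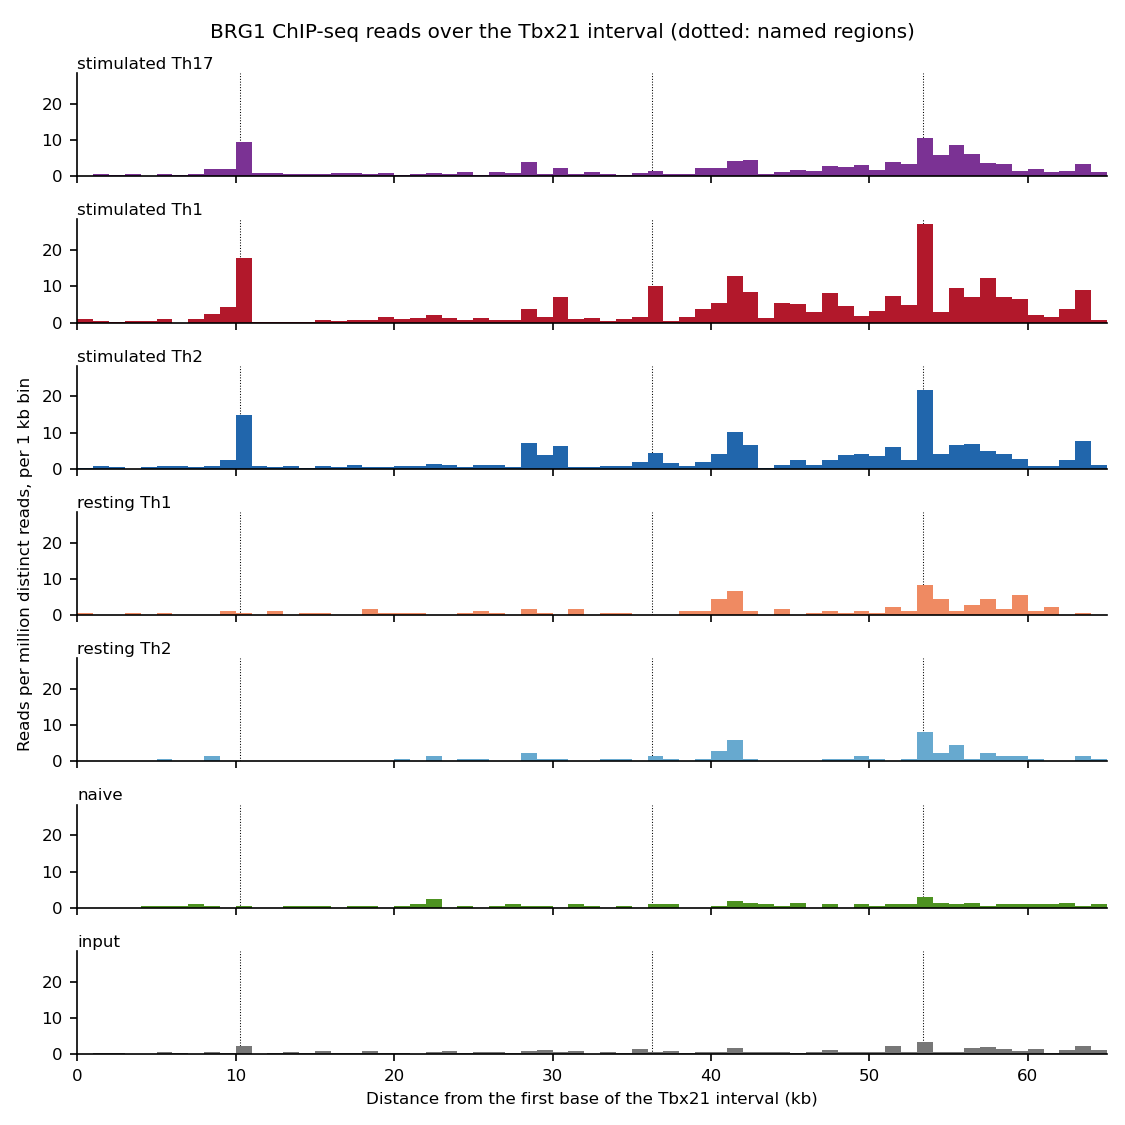
RPM of distinct reads in each 1 kb bin (y) along the Tbx21 interval (x, kb from its first base), 1 library per row on a shared scale, dotted lines at the 3 named regions. The tallest stimulated Th1 bin, at 53 kb, reaches 27.1 RPM, and the naive row stays at or below 2.90 RPM.

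The subsets also differed at Tbx21 after stimulation. Stimulated Th17 had fewer reads than stimulated Th1, a ratio of 0.537 (0.491 to 0.587), and than stimulated Th2, a ratio of 0.733 (0.666 to 0.806). Stimulated Th1 was 1.36-fold above stimulated Th2 (1.24 to 1.50). The flanks differed in much the same way: stimulated Th17 over stimulated Th1 was 0.563 there (0.525 to 0.603), and the interval's ratio over that of the flanks was 0.954 (0.851 to 1.07). For stimulated Th1 over Th2 the interval exceeded its flanks 1.12-fold (0.991 to 1.27), an interval that includes 1. Before stimulation, resting Th1 was 1.72-fold above naive (1.30 to 2.28), and resting Th1 was 1.37-fold above resting Th2 (1.01 to 1.85). The first of these was 1.25 (0.944 to 1.66) and no longer clear of 1 when scaled by the median ratio over all tested 1 kb bins of the genome (those with at least 10 reads in the pair), and the second was 1.30 (0.941 to 1.80) at equal depth and 1.28 (0.952 to 1.74) when scaled by reads in 10 kb bins without called windows. Resting Th2 over naive was 1.26 (0.905 to 1.75), 1.46 (1.05 to 2.02) when scaled by uncalled 10 kb bins and 0.814 (0.585 to 1.13) by the median over tested bins. The flanks were 1.46-fold higher in resting Th1 than in naive (1.26 to 1.70), and the interval's ratio over that of the flanks was 1.18 (0.854 to 1.63).

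BRG1 reads at Tbx21 were gathered in a few places. The highest lay 53.2 kb into the interval, at 96988201 to 96988600, with 54 reads (6.84 RPM) in stimulated Th17, 89 (22.7) in stimulated Th1, 70 (16.4) in stimulated Th2 cells, 7 (3.87) in resting Th1, 4 (2.98) in resting Th2, 4 (1.93) in naive and 8 (2.27) in input. The bin that holds this region, from 96988001, was also the highest of the input, with 12 reads. Stimulated Th1 and Th2 stood apart from every other library in the region. Stimulated Th1 was 5.87-fold above resting Th1 (2.73 to 15.0) and stimulated Th2 5.503-fold above resting Th2 (2.06 to 20.8). Stimulated Th17 was at 0.301 of stimulated Th1 (0.211 to 0.427), less than the 0.537 over the whole interval.

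Near the other end, 96945001 to 96945600 was filled in all stimulated libraries and nearly empty in the others. It held 69 reads (8.74 RPM) in stimulated Th17, 67 (17.1) in stimulated Th1, 58 (13.6) in stimulated Th2 cells, 0 in resting Th1, 0 in resting Th2, 1 (0.483) in naive and 7 (1.98) in input. Stimulated Th1 was at least 8.15-fold above resting Th1 and stimulated Th2 at least 4.79-fold above resting Th2 (exact lower bounds). With the resting counts set to the floor of 3, the ratios were 10.3 and 6.08. The input had more reads there than any of the 3 unstimulated BRG1 libraries. Stimulated Th17 was at 0.511 of stimulated Th1 (0.360 to 0.726).

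The third region, 96971201 to 96971400, separated the stimulated subsets more than the other 2 did. It held 2 reads (0.253 RPM) in stimulated Th17, 29 (7.40) in stimulated Th1, 9 (2.11) in stimulated Th2 cells, 0 in resting Th1, resting Th2 and naive, and 1 (0.283) in input. Stimulated Th1 was 3.51-fold above stimulated Th2 (1.62 to 8.42), and stimulated Th17 was at 0.0342 of stimulated Th1 (0.00396 to 0.135). Stimulated Th1 was at least 3.40-fold above resting Th1 (exact lower bound), or 4.46-fold with the resting count set to 3. Stimulated Th17 was at 0.120 of stimulated Th2 (0.0126 to 0.580), or 0.231 (0.0386 to 1.01) without the inward shift of read ends. Stimulated Th2 over input was 7.46 (1.03 to 327), or 2.90 (0.552 to 28.6) without that shift. At equal depth the region was called in stimulated Th1 only. These regions were picked for their reads, so their values are a description.

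Fixed bins of 1 kb were not picked by place, but they count the same reads. A bin was called where 2 libraries differed at least 3-fold, the interval left out 1 and they held at least 10 reads together. A bin can meet that minimum through the deeper stimulated library alone. At 96965001, for instance, there were 28 reads in stimulated Th1 and 0 in resting Th1. These counts are therefore a description too. In stimulated over resting Th1, 14 of 28 tested Tbx21 bins were higher and 0 lower, where 16.7% of all tested bins of the genome were higher and 1.97% lower. In stimulated over resting Th2, 6 of 25 were higher and 0 lower, against 8.29% and 2.13%. The 5 bins higher in both subsets began at 96945001, 96965001, 96977001, 96986001 and 96998001. In the last of these, stimulated Th17 had 27 reads, stimulated Th1 35, stimulated Th2 33, resting Th1 1, resting Th2 2, naive 1 and input 8. At equal depth 7 bins were higher in Th1 and 3 in Th2, with 0 lower. No genome shares at equal depth are given, here or for the equal-depth bin counts below. The shares above do not apply to those counts. Over the tested Tbx21 bins the median ratio was 4.12 in Th1 and 3.15 in Th2, against medians of 1.62 and 1.31 over all tested bins. Over the 3 intervals, the 21 higher and 0 lower bins of Th1 became 13 higher and 3 lower when scaled by the median over tested bins. They became 31 and 0 when scaled by reads in 10 kb bins without called windows. The 8 higher and 2 lower of Th2 became 7 higher and 3 lower on the first of these scales and 9 and 0 on the second.

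In the other comparisons few Tbx21 bins were called. Stimulated Th1 was higher than stimulated Th2 in 2 of 32 bins and lower in 0 (2.02% and 4.04% of the genome's). The 2 began at 96979001, with 21 reads in stimulated Th1 against 5 in stimulated Th2, and at 96982001, with 32 in stimulated Th1 against 10 in stimulated Th2. Stimulated Th17 was lower than stimulated Th1 in 5 of 46 bins (3.14% of the genome's) and higher in 0 (6.96%), and lower than stimulated Th2 in 2 of 44 (4.41%) and higher in 0 (7.11%). The bin from 96971001, which holds the third region, was in both sets, with 11 reads in stimulated Th17, 40 in stimulated Th1 and 19 in stimulated Th2. Over the 3 intervals, the 5 higher and 10 lower bins of stimulated Th17 over stimulated Th1 became 2 and 16 when scaled by the median over tested bins. Resting Th1 was higher than naive in 2 of only 4 tested bins (10% of the genome's were higher, 1.08% lower). They began at 96976001, with 12 reads in resting Th1 against 4 in naive, and at 96994001, with 10 in resting Th1 against 2 in naive, a ratio of 5.73 (1.22 to 53.8). At equal depth 0 were called in that pair, 3 were lower in stimulated Th17 than in stimulated Th1, and 1 was higher in stimulated Th1 than in stimulated Th2. Neither of 2 tested bins differed between resting Th2 and naive (15.9% of the genome's were higher, 1.33% lower). None of 6 differed between resting Th1 and resting Th2 (1.65% higher, 5.05% lower).

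**Figure D2:**
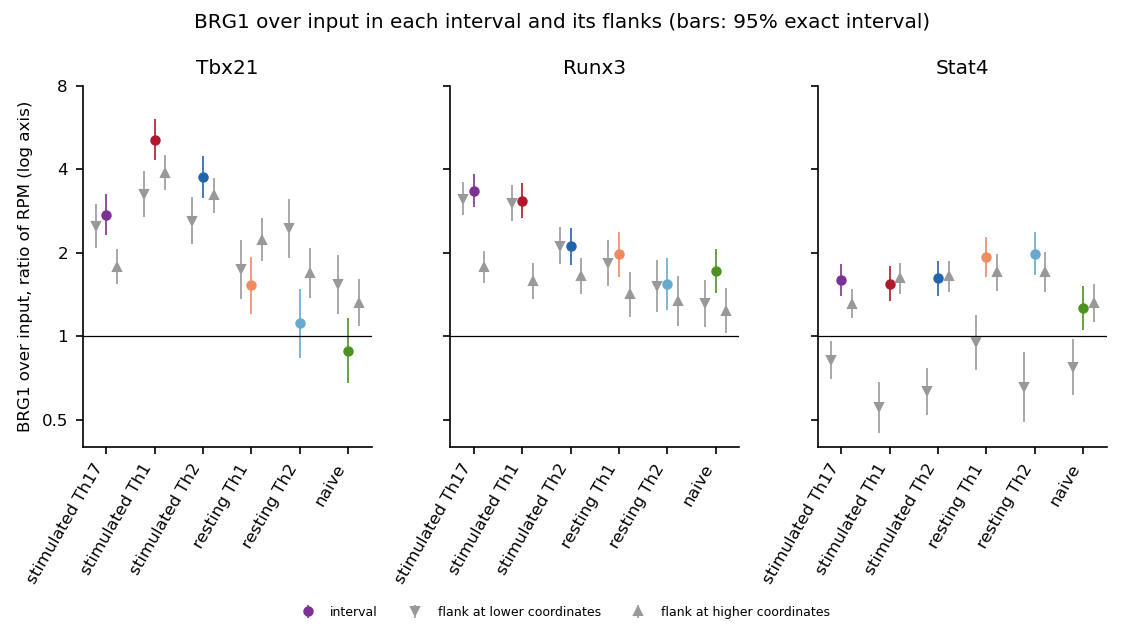
BRG1 over input as a ratio of RPM (y, log axis) in each BRG1 library (x) for the 3 intervals (coloured circles) and their flanks of equal length (grey triangles), with 95% exact intervals. At Tbx21 the ratio runs between 5.11 in stimulated Th1 and 0.889 in naive, and at Stat4 between 1.99 in resting Th2 and 1.27 in naive.

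At Runx3, as at Stat4, BRG1 reads were above input in every BRG1 library, naive cells included. The Runx3 flanks were above input in naive cells too, 1.315-fold at lower and 1.24-fold at higher coordinates. The stimulated subsets were ordered differently at Runx3 from Tbx21. The interval held 219.9 RPM in stimulated Th17, 202.7 in stimulated Th1, 138.7 in stimulated Th2 cells, 130.0 in resting Th1, 101.5 in resting Th2, 112.9 in naive and 65.7 in input. Over input this was 3.35-fold in stimulated Th17 (2.92 to 3.86), 3.09-fold in stimulated Th1 (2.66 to 3.59) and 1.72-fold in naive (1.43 to 2.07). The flank at lower coordinates was 3.14-fold over input in stimulated Th17 (2.74 to 3.62) and 3.02-fold in stimulated Th1 (2.61 to 3.51). The flank at higher coordinates was 1.78-fold and 1.58-fold over input in these libraries. Against input, the interval was richer than both flanks summed in stimulated Th17, stimulated Th1 and naive (1.39, 1.38 and 1.35-fold). For stimulated Th2 (0.938 to 1.37), resting Th1 (0.977 to 1.54) and resting Th2 (0.830 to 1.41) that comparison included 1. Stimulated Th17 over stimulated Th1 was 1.09 (0.997 to 1.18), an interval that just includes 1, and 0.875 (0.804 to 0.952) when scaled by the median over tested bins. Stimulated Th17 was 1.59-fold above stimulated Th2 (1.44 to 1.74), and stimulated Th1 1.46-fold above stimulated Th2 (1.31 to 1.63). These exceeded the ratios of the flanks 1.23-fold (1.10 to 1.38) and 1.22-fold (1.06 to 1.39).

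At Runx3 the activation ratios were smaller than at Tbx21. Stimulated Th1 was 1.56-fold above resting Th1 (1.35 to 1.81) and stimulated Th2 1.37-fold above resting Th2 (1.13 to 1.66), beside medians of 0.732 and 0.865 over tiles of 100 kb. The flanks were 1.39-fold (1.25 to 1.56) and 1.31-fold (1.15 to 1.50) higher, and the interval's ratio over that of the flanks was 1.12 in Th1 (0.930 to 1.35) and 1.04 in Th2 (0.827 to 1.32). Scaled by the median over tested bins, the 2 ratios were 0.965 (0.834 to 1.12) and 1.04 (0.864 to 1.27), so the call depends on the scale. Resting Th1 over naive was 1.15 (0.956 to 1.38), resting Th2 over naive 0.899 (0.722 to 1.11), and resting Th1 over resting Th2 1.28 (1.03 to 1.59). Scaled by reads in 10 kb bins without called windows, the first was 1.25 (1.04 to 1.51), the second 1.04 (0.836 to 1.29) and the last 1.204 (0.970 to 1.50). Scaled by the median over tested bins, the first was 0.837 (0.695 to 1.01) and the second 0.581 (0.467 to 0.721), so neither direction against naive is stable to the scale.

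**Figure D3:**
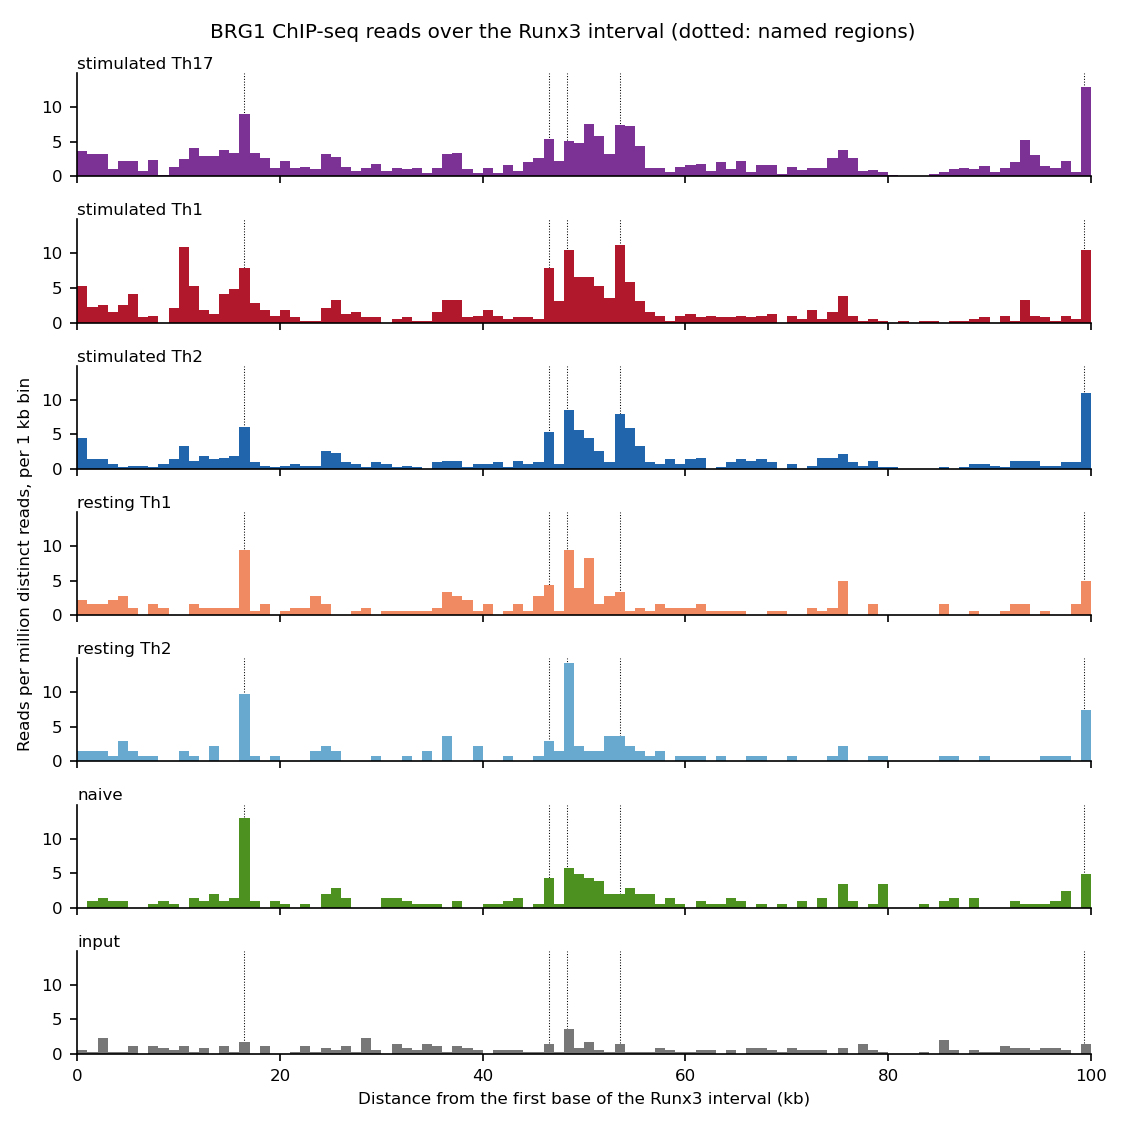
RPM of distinct reads in each 1 kb bin (y) along the Runx3 interval (x, kb from its first base), 1 library per row on a shared scale, dotted lines at the 5 named regions. The bin at 16 kb holds 9.70 RPM in resting Th2 and 13.0 in naive.

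One Runx3 region held no fewer RPM in the unstimulated cells than in the stimulated ones. At 134676201 to 134676600 there were 40 reads (5.07 RPM) in stimulated Th17, 21 (5.36) in stimulated Th1, 17 (3.99) in stimulated Th2 cells, 12 (6.64) in resting Th1, 12 (8.95) in resting Th2, 16 (7.72) in naive and 4 (1.13) in input. The unstimulated libraries had the higher RPM, but no pair of BRG1 libraries compared had an interval clear of 1. Over input it was 6.82-fold in naive (2.20 to 28.0), and 4 libraries were called there at equal depth, the most of any region in the 3 intervals. It was also the only region called in naive cells.

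A pair of Runx3 regions had more reads in stimulated than in resting cells. At 134713401 to 134713600 there were 42 reads (5.32 RPM) in stimulated Th17, 36 (9.19) in stimulated Th1, 27 (6.34) in stimulated Th2 cells, 3 (1.66) in resting Th1, 0 in resting Th2, 4 (1.93) in naive and 1 (0.283) in input. Stimulated Th1 was 5.54-fold above resting Th1 (1.75 to 28.1). Stimulated Th2 was at least 2.15-fold above resting Th2 (exact lower bound), or 2.83-fold with the resting count set to 3. At 134759201 to 134759400, at the edge of the interval, the counts were 49, 25 and 30 in stimulated Th17, Th1 and Th2, and 3, 1 and 3 in resting Th1, resting Th2 and naive, with 3 in input. Stimulated Th1 was 3.85-fold above resting Th1 there (1.17 to 19.9) and stimulated Th2 9.43-fold above resting Th2 (1.57 to 385), and the stimulated subsets lay between 6.21 and 7.04 RPM. The Th1 ratio was 3.23 (0.965 to 16.9) without the inward shift of read ends, and the Th2 ratio 2.25 (0.955 to 6.48) with 200 bp added on each side. At 134706401 to 134706600, stimulated Th17 (3.04 RPM) was at 0.496 of stimulated Th1 (6.13 RPM; 0.270 to 0.913), with 4.69 RPM in stimulated Th2 cells, 2.21 in resting Th1, 2.24 in resting Th2, 1.93 in naive and 0.849 in input. That ratio was 0.683 (0.408 to 1.16) with repeated reads kept. Stimulated over resting was 2.77 in Th1 (0.951 to 11.0) and 2.10 in Th2 (0.622 to 11.0) there, and both intervals include 1.

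The small region 134708201 to 134708400 had its highest RPM in resting Th2, with 2.04 RPM in stimulated Th1, 1.66 in resting Th1 and 5.22 in resting Th2. It held 3 reads in stimulated Th17, 8 in stimulated Th1, 6 in stimulated Th2 cells, 3 in resting Th1, 7 in resting Th2, 2 in naive and 3 in input. Resting Th2 was 5.41-fold above naive (1.03 to 53.4), stimulated Th2 was at 0.270 of resting Th2 (0.0748 to 0.937), and resting Th1 at 0.318 of resting Th2 (0.0530 to 1.39). Without the inward shift of read ends the first was 4.64 (0.372 to 244) and the second 0.419 (0.0709 to 2.86). With so few reads the ratio of stimulated Th17 to stimulated Th1, 0.186 (0.0318 to 0.776), became 1.985 (0.396 to 19.2) when read ends were not moved inward.

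In fixed bins, calls at Runx3 between the stimulated subsets depended on depth. Stimulated Th1 was higher than stimulated Th2 in 6 of 39 tested bins and lower in 0, where 2.02% of the genome's were higher. Stimulated Th17 was higher than stimulated Th2 in 11 of 78 and lower in 0, where 7.11% were higher. At equal depth both of these counts were 0 in each direction. Stimulated Th17 was higher than stimulated Th1 in 2 of 76 and lower in 1, where 6.96% of the genome's were higher and 3.14% lower, and at equal depth 0 were higher and 2 lower. Scaled by the median over tested bins, the 16 higher and 5 lower calls of stimulated Th17 over stimulated Th2 in the 3 intervals became 8 higher and 12 lower, and at equal depth 1 higher and 2 lower. A group of bins toward the low end held few reads in stimulated Th2: at 134664001 there were 17 reads in stimulated Th17, 10 in stimulated Th1 and 1 in stimulated Th2, and at 134665001 there were 17, 16 and 2. In the same order there were 32, 21 and 5 at 134671001, and 26, 14 and 4 at 134712001, further along. The ratio of stimulated Th1 to stimulated Th2 at 134665001 was 8.70 (2.05 to 78.0). At 134670001 stimulated Th1 led, with 20 reads in stimulated Th17, 43 in stimulated Th1, 14 in stimulated Th2 cells, 0 in resting Th1, 2 in resting Th2, 0 in naive and 4 in input. Of 31 bins tested, 5 were higher in stimulated than in resting Th1, near the genome's share, and 0 of 16 in Th2. Between resting Th1 and resting Th2, 1 of 10 was called (1.65% of the genome's were higher, 5.05% lower), at 134710001 with 15 reads in resting Th1 against 2 in resting Th2, which is lost where at least 20 reads are asked for. No bin was called between resting Th1 and naive (9 tested; 10% of the genome's were higher) or resting Th2 and naive (8 tested; 15.9% higher), and with so few tested bins these counts say little.

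At Stat4, unlike the other loci, the stimulated libraries did not have more reads than the resting ones. The interval held 128.8 RPM in stimulated Th17, 125.6 in stimulated Th1, 131.2 in stimulated Th2 cells, 156.5 in resting Th1, 161.2 in resting Th2, 102.8 in naive and 81.0 in input. The resting subsets were highest and naive was lowest of the BRG1 libraries. Stimulated over resting was 0.802 in Th1 (0.692 to 0.932) and 0.814 in Th2 (0.694 to 0.957), where the median over tiles of 150 kb was 0.732 in Th1 and 0.865 in Th2. Scaled by reads in 10 kb bins without called windows, they were 0.9495 (0.819 to 1.10) and 0.883 (0.753 to 1.04), which include 1. Scaling by the median over tested bins, 1.615 in Th1 and 1.31 in Th2, lowers both ratios further. How far the level fell after stimulation thus depends on the scale. The flanks had ratios of 0.849 in Th1 (0.754 to 0.956) and 0.964 in Th2 (0.844 to 1.10). The interval's ratio over that of the flanks was 0.945 in Th1 (0.781 to 1.145) and 0.845 in Th2 (0.685 to 1.04). The 3 stimulated subsets did not differ beyond counting error: stimulated Th1 over Th2 was 0.957 (0.847 to 1.08), stimulated Th17 over Th1 1.03 (0.920 to 1.14) and stimulated Th17 over Th2 0.982 (0.885 to 1.09). Scaled by the median over tested bins, the last 2 were 0.827 (0.742 to 0.923) and 0.780 (0.703 to 0.866).

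The cultured resting subsets had more Stat4 reads than naive cells. Resting Th1 was 1.52-fold above naive (1.27 to 1.83) and resting Th2 1.57-fold (1.29 to 1.90), where the medians over tiles were 0.919 and 0.807. Both comparisons share the naive library. Divided by the ratio of the flanks, the ratio to naive was 1.19 for resting Th1 (0.949 to 1.50) and 1.34 for resting Th2 (1.04 to 1.72). Scaled by the median over tested bins, the ratios to naive were 1.11 (0.924 to 1.33) and 1.01 (0.835 to 1.23). Resting Th1 over resting Th2 was 0.971 (0.811 to 1.17).

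**Figure D4:**
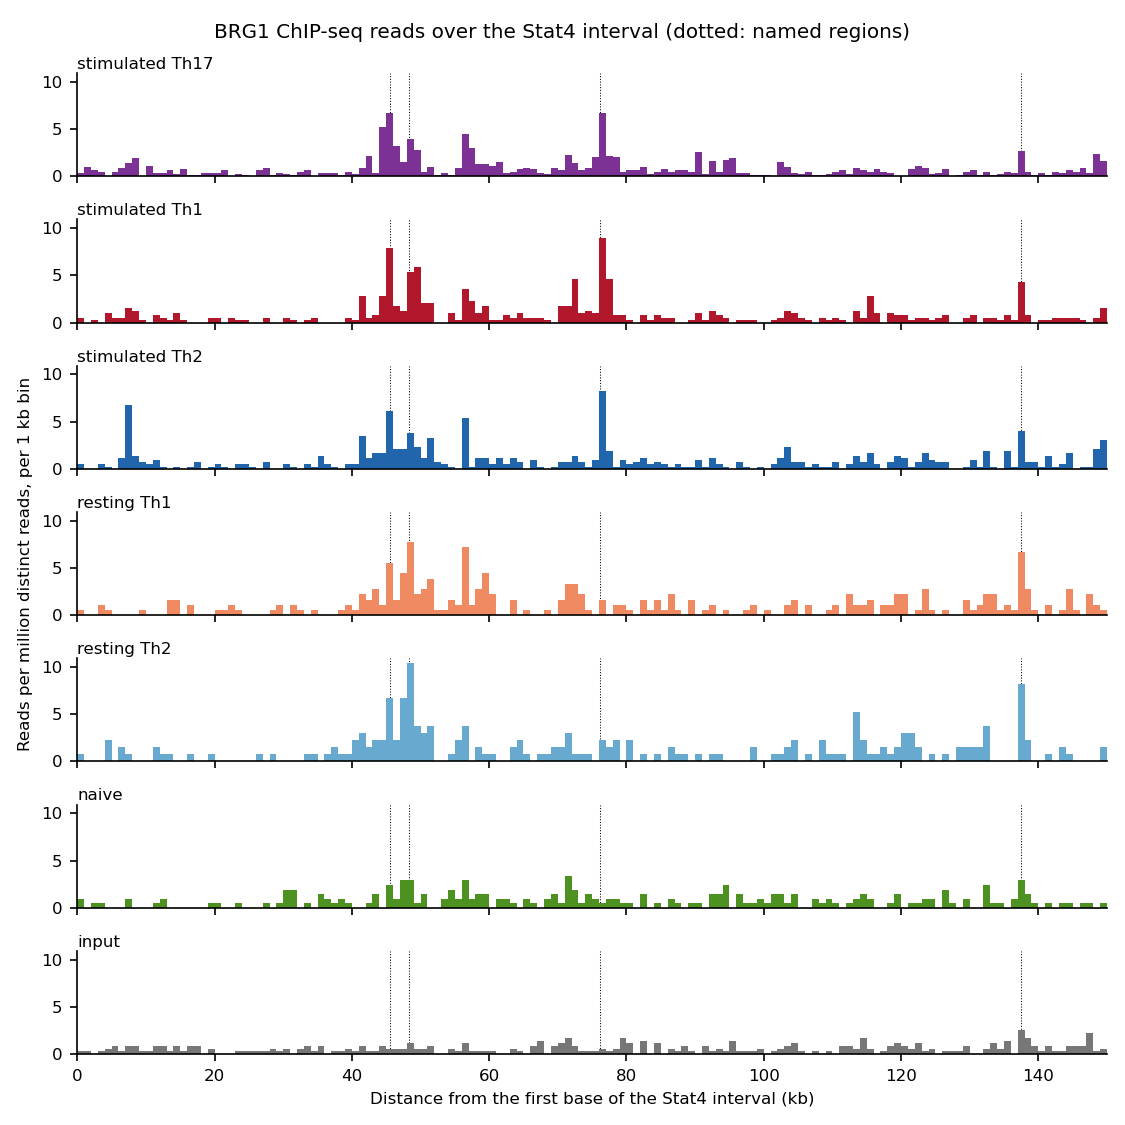
RPM of distinct reads in each 1 kb bin (y) along the Stat4 interval (x, kb from its first base), 1 library per row on a shared scale, dotted lines at the 4 named regions. The bin at 76 kb holds 8.93 RPM in stimulated Th1 against 1.66 in resting Th1, and the bin at 48 kb holds 10.4 RPM in resting Th2.

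Single Stat4 regions differed in both directions. At 52096001 to 52096400 there were 35 reads (4.43 RPM) in stimulated Th17, 22 (5.62) in stimulated Th1, 22 (5.16) in stimulated Th2 cells, 1 (0.553) in resting Th1, 2 (1.49) in resting Th2, 0 in naive and 2 (0.566) in input. The 3 stimulated libraries had more RPM than each of the others. Stimulated Th1 was 10.2-fold above resting Th1 (1.64 to 419), while stimulated over resting Th2 was 3.46 (0.850 to 30.4), an interval that includes 1.

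The region 52068201 to 52068400 was lower in stimulated than in resting Th2. It held 19 reads (2.41 RPM) in stimulated Th17, 10 (2.55) in stimulated Th1, 6 (1.41) in stimulated Th2 cells, 5 (2.77) in resting Th1, 8 (5.97) in resting Th2, 4 (1.93) in naive and 1 (0.283) in input. Stimulated Th2 was at 0.236 of resting Th2 (0.0675 to 0.775), and at 0.432 (0.158 to 1.24) without the inward shift. At 52157401 to 52157600 RPM was highest in the resting libraries, with 1.39 RPM in stimulated Th17, 2.30 in stimulated Th1, 2.35 in stimulated Th2 cells, 4.42 in resting Th1, 5.97 in resting Th2, 0.965 in naive and 1.13 in input. Resting Th2 was 6.18-fold above naive there (1.23 to 59.8), or 4.64-fold (0.829 to 47.0) without the inward shift. Resting Th1 over naive was 4.58 (0.915 to 44.3), stimulated over resting Th1 0.519 (0.178 to 1.55) and stimulated over resting Th2 0.393 (0.140 to 1.15), all of which include 1. At 52065401 to 52065600 there were 2.28 RPM in stimulated Th17, 4.59 in stimulated Th1, 3.75 in stimulated Th2 cells, 2.77 in resting Th1, 2.24 in resting Th2, 1.93 in naive and 0.566 in input. No pair of BRG1 libraries compared was clear of 1 in that region.

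In fixed bins, Stat4 had 2 of 19 higher and 0 lower in stimulated over resting Th1, where 16.7% of the genome's tested bins were higher and 1.97% lower, and at equal depth 1 was higher. In Th2 it had 2 of 18 higher and 2 of 18 lower, against 8.29% and 2.13%, and at equal depth 1 higher and 0 lower. The bin from 52096001 was higher in both subsets, with 35 reads in stimulated and 3 in resting Th1, and 35 in stimulated and 3 in resting Th2. The lower 2 began at 52067001, with 9 reads in stimulated Th2 and 9 in the shallower resting Th2, and at 52133001, with 6 in stimulated Th2 and 7 in resting Th2. The second was named after its values were seen. The bin from 52068001 had 16 reads in stimulated Th2 and 14 in resting Th2, a ratio of 0.359 (0.164 to 0.795) that falls short of 3-fold. It was the 1 of 7 tested bins that was higher in resting Th2 than in naive, with 14 reads in resting Th2 against 6 in naive, a ratio of 3.61 (1.30 to 11.5). That count is near the genome's share of 15.9%. The bin from 52027001 had 11 reads in stimulated Th17, 6 in stimulated Th1 and 29 in stimulated Th2, against 0 in resting Th1, 1 in resting Th2, 2 in naive and 3 in input. Stimulated Th1 was at 0.225 of stimulated Th2 there (0.0764 to 0.552).

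A pair of Stat4 bins had more reads in stimulated Th17. The bin from 52077001 had 24 reads in stimulated Th17, 9 in stimulated Th1 and 1 in stimulated Th2, and stimulated Th17 was 13.0-fold above stimulated Th2 (2.11 to 533). The bin from 52115001 had 15 reads in stimulated Th17, 0 in the other BRG1 libraries and 5 in input. Stimulated Th17 was at least 1.78-fold above stimulated Th1 there (exact lower bound), or 2.48-fold with the stimulated Th1 count set to 3. At 1.90 RPM, however, stimulated Th17 lay close to the 1.42 RPM of the input. Over the interval, stimulated Th17 was higher than stimulated Th1 in 3 of 41 bins and lower in 4, where 6.96% of the genome's were higher and 3.14% lower. It was higher than stimulated Th2 in 5 of 45 and lower in 3, where 7.11% were higher and 4.41% lower. Stimulated Th1 was higher than stimulated Th2 in 2 of 29 and lower in 1, where 2.02% were higher and 4.04% lower. At equal depth 1 bin was higher in stimulated Th17 than in stimulated Th2, and 0 were called in the other pairs of stimulated subsets. The bin from 52092001 was called for stimulated Th1 against both others, with 11 reads in stimulated Th17, 18 in stimulated Th1 and 6 in stimulated Th2, and at 52061001 stimulated Th17 was lower than both others, with 7 reads against 11 and 15. No bin was called between resting Th1 and naive (8 tested; 10% of the genome's were higher, 1.08% lower) or resting Th1 and resting Th2 (7 tested; 1.65% higher, 5.05% lower), and with so few tested bins these counts say little.

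**Figure D5:**
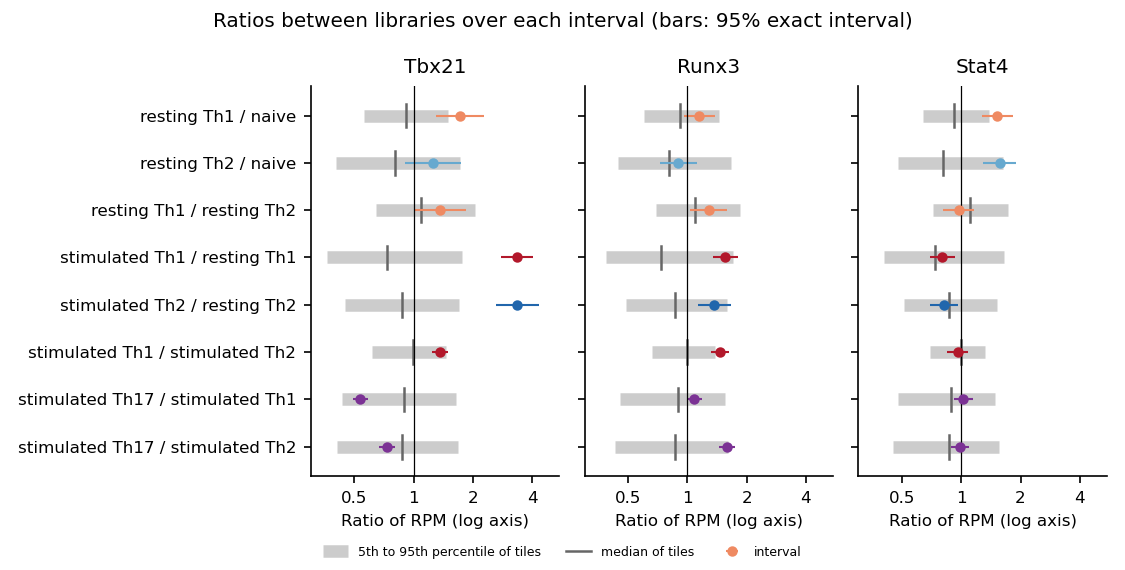
Ratios of RPM between 8 pairs of libraries (rows; x, log axis) over the whole Tbx21, Runx3 and Stat4 intervals (points with 95% exact intervals), with the 5th to 95th percentile (grey bar) and median (dark tick) of all genome tiles of the same length. The Tbx21 activation ratios of 3.35 lie beyond the grey bars, which end at 1.76 in Th1 and 1.71 in Th2.

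Windows of 200 bp were called most often at Tbx21 in stimulated Th1. At equal depth, a window was called where its reads passed a Poisson tail of 1e-05 against the local input and the genome mean. Of the 325 Tbx21 windows, 0 were called in stimulated Th17, 11 in stimulated Th1, 4 in stimulated Th2 cells, 0 in resting Th1, 1 in resting Th2 and 0 in naive. That is 3.38% in stimulated Th1 and 1.23% in stimulated Th2, where 0.111% and 0.0994% of all windows of the genome were called. Of the 500 Runx3 windows, 3, 6, 3, 1, 2 and 1 were called in the same order of libraries. Of the 750 Stat4 windows, 3, 1, 2, 1, 2 and 0 were called. The genome's shares in the other libraries were 0.0525% in stimulated Th17, 0.0627% in resting Th1, 0.0768% in resting Th2 and 0.0262% in naive. The called windows joined into 24 regions, 9 at Tbx21, 10 at Runx3 and 5 at Stat4, of which 14 were called in 1 library. With all distinct reads, stimulated Th17, the deepest library, had 16 Tbx21, 35 Runx3 and 19 Stat4 windows, where 0.521% of the genome's were called. Stimulated Th1 had 29, 15 and 9 (0.347%), stimulated Th2 17, 9 and 6 (0.356%), resting Th1 1, 1 and 3 (0.0864%), resting Th2 1, 2 and 2 (0.0768%) and naive 0, 2 and 0 (0.0482%). Stimulated Th17 thus had 0 Tbx21 windows at equal depth and 16 at its own depth. Of the 12 regions not described above, 6 lay at Tbx21, 5 at Runx3 and 1 at Stat4. They reached at most 6.64 RPM in any BRG1 library, at 96998001 to 96998200 in stimulated Th1.

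For the leading window of each locus, the windows elsewhere with the most similar RPM across the 6 BRG1 libraries were looked up among those called in the same libraries. Likeness is the Euclidean distance of log2(RPM + 1). The Tbx21 window 96988201 to 96988400 (4.43, 14.8, 11.0, 2.21, 2.24 and 0.483 RPM from stimulated Th17 to naive) was nearest, among 2318 windows, to chromosome 9, 51022001 to 51022200, at a distance of 0.423. Next came chromosome 11, 61497401 to 61497600, at 0.554. For Runx3, 134713401 to 134713600, the nearest of 2320 was chromosome 12, 85534601 to 85534800, at 0.573, and then chromosome 11, 69224401 to 69224600, at 0.602. For Stat4, 52068201 to 52068400, whose highest RPM is that of 52157401 to 52157600 too, the nearest of 53 were chromosome 19, 32285401 to 32285600, and chromosome 5, 111607601 to 111607800, both at 0.936. These values share library depth and have no replicate, and no genes are attached to the windows.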

How the data were processed

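BRG1 ChIP-seq was read in 6 libraries and input in 1. The deposited files hold the authors' aligned reads, 34 bases long, as start and end positions with a strand. No counts, signal or peaks of the authors were used here. The build is mm9, per the submitters' processing notes, and the aligner is not given in the sources used here. Chromatin was cut with MNase and sonicated, per the labels' protocols. Here repeats of a start on a strand were reduced to 1 read, without chromosome Y, and 5′ ends were moved 75 bp inward. Reads were counted in 200 bp windows, 1 kb bins, the 3 intervals and flanks of equal length. Windows were called on libraries thinned to 1340208 reads, with a Poisson tail against whichever was higher, the mean over the genome or the input scaled over 1, 5 and 10 kb, and joined over gaps of up to 1 window. Ratios of RPM have conditional exact 95% intervals, and quotients of ratios are conditional odds ratios. Named regions are those called in at least 3 libraries and the 3 highest others per interval. Bins could be named if called in at least 2 pairs or the extreme of a pair, and 1 bin, at 52133001, was named outside this rule. Other scales, depths, tails, shifts, minimum reads and the keeping of repeats were tried as alternatives. Window calls, bin calls and tile ratios ran over the whole genome, and the other ratios only at the intervals, their flanks and the named regions. The software was Python 3.11.15, numpy 2.4.6, pandas 2.3.3 and scipy 1.17.1. Window calling and the rule for differing bins were tested on simulated data, and the other steps were not. The intervals and rules were chosen with earlier results of these data known.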

Additional observations from a re-analysis of the deposited data

How the results depend on the processing

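Over the intervals, 190 alternative values kept their direction and their side of 1, 10 reversed, 9 were no longer clear of 1 and 7 became clear of 1. The Tbx21 activation ratios kept both under all 6 alternatives: they ran between 2.07 and 3.96 in Th1 and between 2.56 and 3.86 in Th2. The settings with no shift and with a shift of 100 bp repeated the main values, since so small a move can hardly change counts over a whole interval. The cause of the changes below was not tested unless named. Scaled by the median over tested bins, ratios were as follows. At Tbx21, resting Th1 over naive was 1.25 and resting Th2 over naive 0.814. At Runx3, resting Th1 over naive was 0.837, resting Th2 over naive 0.581, stimulated over resting Th1 0.965, stimulated over resting Th2 1.04 and stimulated Th17 over Th1 0.875. At Stat4, resting Th1 over naive was 1.11, resting Th2 over naive 1.01, resting Th1 over resting Th2 1.09, stimulated Th17 over Th1 0.827 and stimulated Th17 over Th2 0.780. Scaled by 10 kb bins without called windows, Tbx21 had 1.41 for resting Th2 over input, 1.46 for resting Th2 over naive and 1.28 for resting Th1 over resting Th2. In that scaling Runx3 had 1.25 for resting Th1 over naive, 1.04 for resting Th2 over naive and 1.204 for resting Th1 over resting Th2. Stat4 had 0.9495 for stimulated over resting Th1, 0.883 for stimulated over resting Th2 and 0.9499 for stimulated Th17 over Th1. With all reads kept, Runx3 had 1.25 for resting Th1 over naive and 1.15 for stimulated Th17 over Th1, and Stat4 had 1.00 for stimulated Th1 over Th2 and 1.02 for stimulated Th17 over Th2. At equal depth resting Th1 over resting Th2 at Tbx21 was 1.30. Without the shift, stimulated Th17 over stimulated Th1 at the Runx3 region from 134708201 was 1.985. Of the alternative ratios at named regions, 203 kept both, 16 were no longer clear of 1 and 1 reversed.

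Called windows in the 3 intervals numbered 6 in stimulated Th17, 18 in stimulated Th1, 9 in stimulated Th2 cells, 2 in resting Th1, 5 in resting Th2 and 1 in naive. With all distinct reads they numbered 70 in stimulated Th17, 53 in stimulated Th1, 32 in stimulated Th2 cells, 5 in resting Th1 and 2 in naive. From stimulated Th17 to naive, in the order just given, they were 24, 37, 20, 13, 12 and 5 with a tail of 1e-03 and 24, 34, 23, 12, 13 and 5 against the genome mean only. A tail of 1e-07 left 1 in stimulated Th17, 5 in stimulated Th2 cells, 1 in resting Th1, 2 in resting Th2 and 0 in naive. With all reads kept there were 20 in stimulated Th17, 18 in stimulated Th2 cells, 9 in resting Th1, 16 in resting Th2 and 6 in naive, and without the shift 3 in resting Th2. Genome shares are given only for the main setting and for all distinct reads, so the other counts show only how calls moved.

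Differing bins in the 3 intervals numbered 21 in Th1 activation, 10 in Th2 activation, 2 for resting Th1 over naive, 1 for resting Th2 over naive and 1 for resting Th1 over resting Th2. They numbered 11 for stimulated Th1 over Th2, 15 for stimulated Th17 over Th1 and 21 for stimulated Th17 over Th2. At equal depth there were 11 in Th1 activation, 5 in Th2 activation, 1 for stimulated Th1 over Th2, 5 for stimulated Th17 over Th1 and 3 for stimulated Th17 over Th2, of which 1 was higher and 2 lower. With all reads kept there were 32 in Th1 activation, 23 in Th2 activation, 11 for resting Th1 over naive, 8 for resting Th2 over naive and 7 for resting Th1 over resting Th2. At 2-fold there were 2 for resting Th2 over naive, 17 for stimulated Th1 over Th2 and 28 for stimulated Th17 over Th1. With at least 20 reads there were 0 for resting Th1 over naive, 0 for resting Th1 over resting Th2, 6 for stimulated Th1 over Th2 and 9 for stimulated Th17 over Th1. Without a minimum there were 9 for resting Th1 over naive and 6 for resting Th2 over naive. Bins moved by 500 bp gave 4 and 2 for these pairs, scaling by the median over tested bins 0 and 0, and scaling by uncalled bins 3 for resting Th2 over naive. Genome shares of differing bins are given for the main setting only, so the counts under alternative settings show only how calls moved. The split of 21 higher and 0 lower in Th1 activation became 13 and 3 under the median over tested bins and 31 and 0 under uncalled bins. The 8 higher and 2 lower in Th2 activation became 7 and 3 under the median over tested bins and 9 and 0 under uncalled bins. The 16 higher and 5 lower of stimulated Th17 over Th2 became 8 and 12 under the median over tested bins. The 5 higher and 10 lower of stimulated Th17 over Th1 became 2 and 16 under the median over tested bins. The median ratio over tested bins was shifted by 0.69 (log2) in Th1 activation, by 0.39 in Th2 activation, by 0.31 for stimulated Th17 over Th1, by 0.33 for stimulated Th17 over Th2, by 0.46 for resting Th1 over naive, by 0.63 for resting Th2 over naive and by -0.17 for resting Th1 over resting Th2. No paired analysis was possible because each group has 1 library. Without replicates, none of these values says how far 2 cultures of the same kind would differ.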

Other observations

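As a description over bins that share depth and DNA, libraries were compared along each interval. Pearson's r of stimulated Th1 with stimulated Th2 was 0.93 over 65 Tbx21 bins, 0.87 over 100 Runx3 bins and 0.78 over 150 Stat4 bins. Resting Th1 with resting Th2 had r of 0.77, 0.77 and 0.71 in the same order of loci. With the input it was 0.77, 0.43 and 0.22 for stimulated Th1. The 5 highest bins held 33.5% of the stimulated Th1 reads at Tbx21, 25.2% at Runx3 and 26% at Stat4. In the input they held 26.1%, 18.1% and 12.2%.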
